A study of Homo sapiens with 6 samples.

Results

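The 35 genes described here encode the enzymes of cholesterol and fatty acid synthesis, the proteins that control them and a sterol carrier. They were taken by gene symbol from a count table of 29710 genes, in which each symbol occurred once, and all 35 had enough reads to be tested. The symbols comprise 17 enzymes from HMG-CoA to cholesterol, 5 genes of sterol-sensing control, 3 that supply acetyl-CoA units, 3 of fatty acid synthesis proper, 6 of fatty acid desaturation and elongation, and the sterol carrier STARD4. Expression was measured by strand-specific paired-end RNA sequencing in MDA-MB-231 cells, an established triple-negative breast cancer line, in 3 biological replicates overexpressing SRPK2-FLAG, a tagged form of the kinase, and 3 with an empty vector (NC in the labels). All libraries come from this single line, and the labels do not say which vector or promoter was used or whether the cells were a clone or a pool. Gene totals do not separate the construct from the cells' own SRPK2.

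Cells make cholesterol from acetyl-CoA through mevalonate, squalene and lanosterol, and fatty acids from the same acetyl-CoA by carboxylation to malonyl-CoA and repeated condensation on fatty acid synthase. Most of these enzymes are transcribed under the SREBP factors, which are held in the endoplasmic reticulum by INSIG proteins when sterols are plentiful and carried to the Golgi by SCAP when they are not. SRPK2, a kinase of serine- and arginine-rich splicing factors, has been reported to act downstream of mTORC1 and S6K1 and to favour the splicing of lipogenic transcripts, and the comparison asks whether gene totals of this pathway differ when SRPK2 is raised. Gene totals hold no exon or intron counts, so splicing itself was not measured.

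The libraries held 31140537 to 36908878 reads with SRPK2 and 33590410 to 36225361 with the empty vector. SRPK2 had 213, 248 and 294 CPM (reads scaled to library size with TMM factors) in the SRPK2 libraries, against 37.8, 36.7 and 41.1 CPM with the empty vector. The line's mesenchymal and basal markers VIM, CD44, AXL, CAV1, CAV2, MSN, ANXA1 and S100A4 stood at 29.8 to 637 FPKM (reads scaled to gene length and library size, as deposited), while ESR1, PGR and FOXA1 had fewer than 10 reads in every library. Of the other luminal and epithelial markers, CDH1 stood at 0.33 to 0.44 FPKM, GATA3 at 3.78 to 4.19 FPKM and EPCAM at 5.03 to 5.84 FPKM. Fibroblast markers summed to 9.44 to 11.0 CPM with SRPK2 and 7.65 to 8.40 CPM with the empty vector, scaled by library size, so the groups did not overlap. Of these 6 markers, 4 were tested and all 4 had positive log2 fold changes, COL3A1 and PDGFRA were at or below 0.01 FPKM, and the part of such cells in the results below was not tested. Leukocyte markers summed to 5.46 to 6.27 CPM with SRPK2 and 5.69 to 6.49 CPM with the empty vector, endothelial markers to 6.49 to 8.32 and 6.67 to 7.68 CPM, and adipocyte markers to 0.312 to 0.385 and 0.208 to 0.420 CPM.

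No gene of the pathway passed the threshold. In edgeR's quasi-likelihood test 0 of the 35 genes had a Benjamini-Hochberg adjusted p under 0.05, where 0.454% of all 16515 tested genes did (0.381% higher and 0.0727% lower with SRPK2). DESeq2 called 1 of the 35, PMVK (adjusted p = 0.0474), where it called 1.07% of 14272 genes. Both limma-voom and limma on log2(FPKM + 1) called 0, where they called 0.412% of 16515 and 0.378% of 13243 genes, the second without ACACB, which fell under its filter of 0.5 mean FPKM. The same edgeR test with no filter on low counts called 2, PMVK and SCD, where it called 3.36% of all 29710 genes. The log2 fold changes of SRPK2 over empty vector lay between -0.30 for PMVK and 0.27 for ACACB, with a median of 0.05, against a median of 0.00 over all tested genes. Positive values were found for 23 of the 35 genes (65.7%), where 51.2% of all tested genes had one. Scaling by library size alone lifted the median of all tested genes to 0.04, and with it 28 of the 35 were positive. At an unadjusted p under 0.05 there were 10 of 35 genes, 8 higher and 2 lower with SRPK2 (28.6%), where 17.2% of all tested genes passed (9.06% higher and 8.1% lower). Every SRPK2 value lay on 1 side of every empty-vector value, in CPM, for 12 pathway genes (34.3%), 10 higher and 2 lower, where this held for 20.1% of all tested genes (11.5% higher and 8.69% lower). The pathway genes had a median SE of 0.06 on the log2 scale against 0.08 over all tested genes.

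The 95% intervals limit how large a difference these 6 libraries could have missed. They are per gene and not adjusted for the number of genes. For 34 of the 35 genes the whole interval lay within 0.5 of 0 on the log2 scale, and for 25 it held 0. ACACB, the least abundant, had an upper bound of 0.54. At the other end PMVK had a lower bound of -0.46. A bulk library cannot tell a smaller share of cells with a transcript from less of it per cell.

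**Figure D1:**
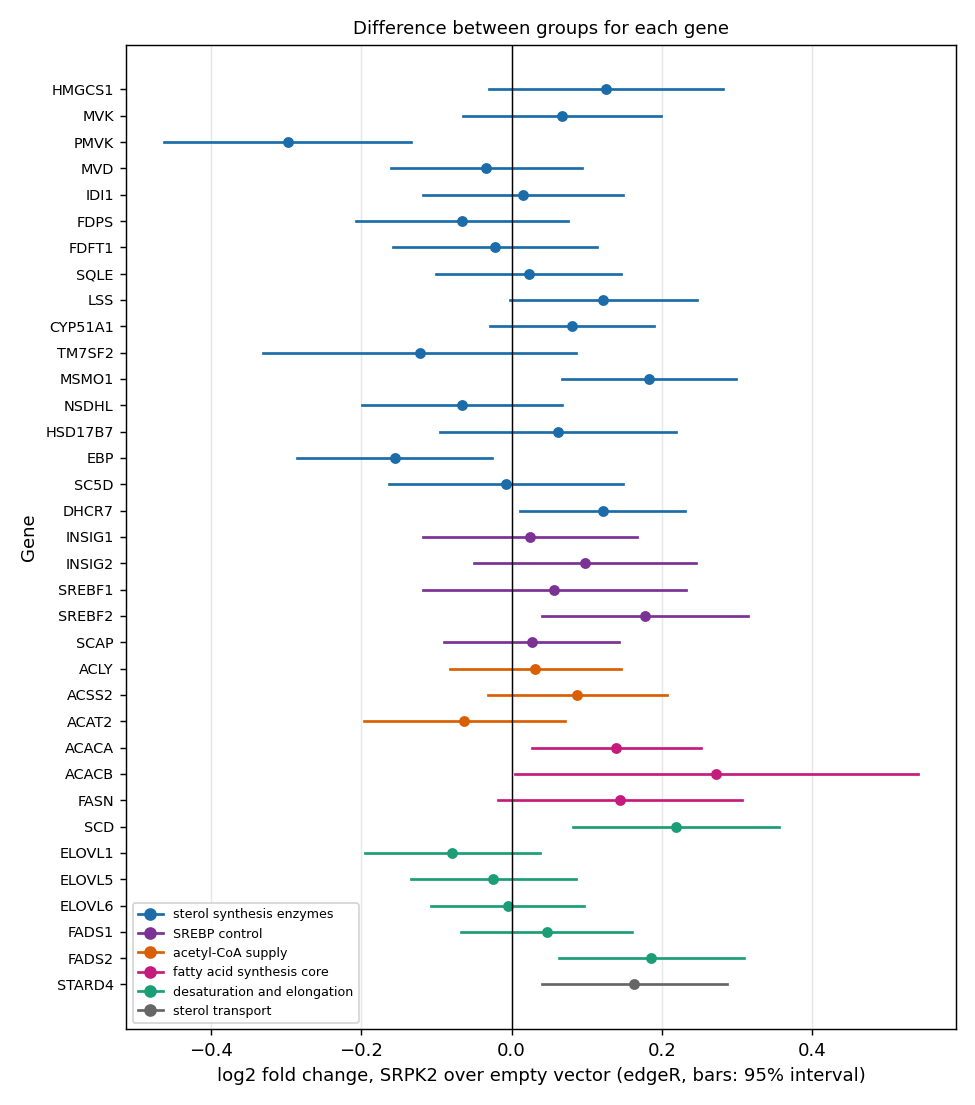
Log2 fold change of SRPK2 over empty vector (x axis, edgeR) for each of the 35 genes (y axis), coloured by role; points are estimates and bars per-gene 95% intervals. The bars of 25 genes cross 0, PMVK lies lowest at -0.30 and ACACB highest at 0.27.

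Levels of the pathway genes spanned a wide range. Per length, the fatty acid elongase gene ELOVL5 was the most abundant, with 66.6, 66.7 and 71.1 FPKM with SRPK2 and 64.8, 66.8 and 71.1 FPKM with the empty vector. ELOVL1 followed with a mean of 57.2 ± 2.06 FPKM with SRPK2 and 58.9 ± 0.51 FPKM with the empty vector (SD, n = 3 each), then EBP with 52.1 ± 3.14 and 56.6 ± 0.64 FPKM, and ACLY with 49.6 ± 2.25 and 47.3 ± 2.68 FPKM, in the same order of groups. EBP and ACLY overlapped in the SRPK2 libraries, so their order there is within the spread. PMVK, FDPS, ACAT2 and CYP51A1 came next, with means of 36.7 to 42.1 FPKM with SRPK2 and 36.6 to 44.0 FPKM with the empty vector. The scarcest genes were HSD17B7 (2.32 ± 0.06 FPKM with SRPK2 and 2.16 ± 0.08 FPKM with the empty vector), TM7SF2 (1.44 ± 0.06 and 1.53 ± 0.06 FPKM) and ACACB (0.257 ± 0.02 and 0.207 ± 0.02 FPKM; SD, n = 3 each). ACACB had 107 to 168 reads in a library and its value is therefore the least precise of the 35, with an SE of 0.12 on the log2 scale.

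**Figure D2:**
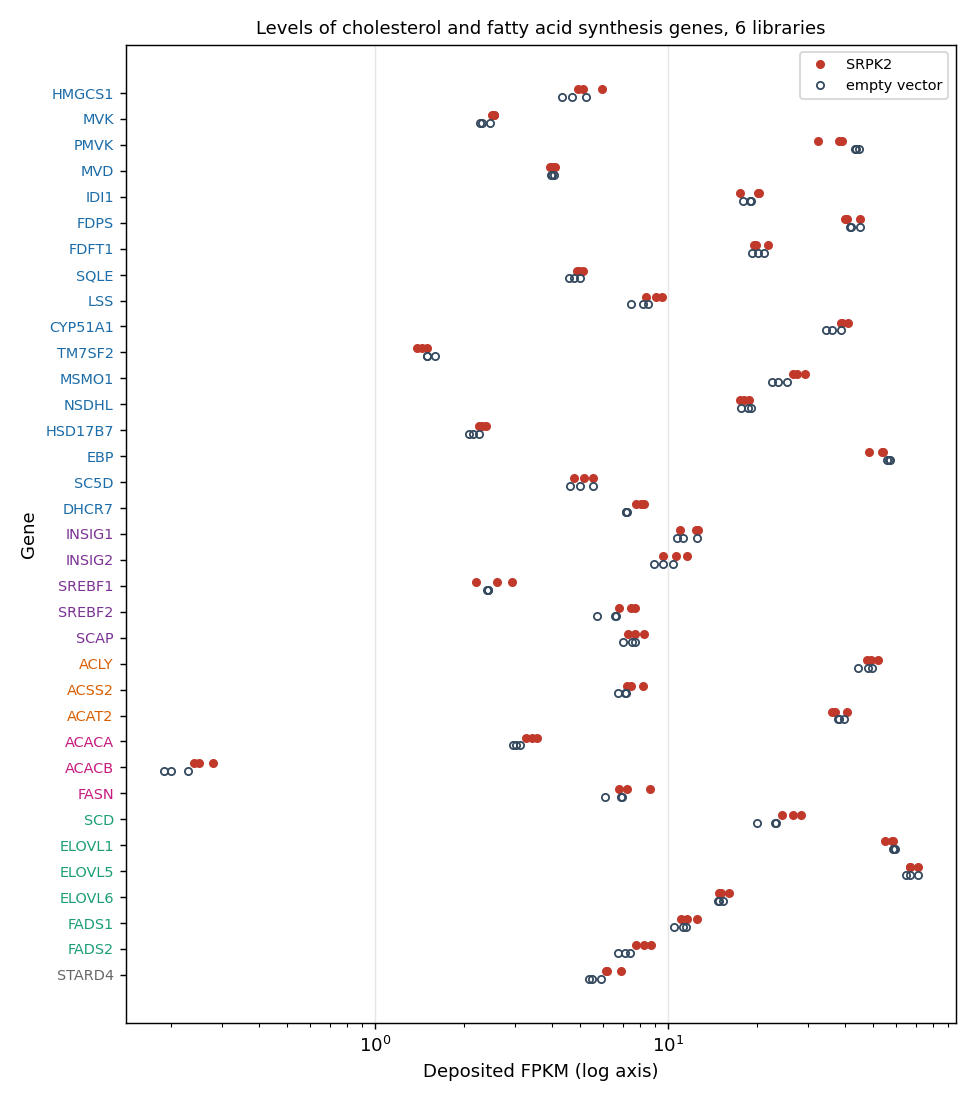
Deposited FPKM (x axis, log axis) of each gene (y axis, labels coloured by role) in the 3 SRPK2 libraries (filled, upper points) and the 3 empty-vector libraries (open, lower points). Levels run from 0.19 FPKM for ACACB to 71.1 FPKM for ELOVL5, and the distance between groups is small beside the distance between genes.

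The early enzymes of the mevalonate pathway lay on both sides of 0. PMVK, phosphomevalonate kinase, had 42.2, 43.3 and 34.7 CPM in the SRPK2 libraries, against 49.1, 50.8 and 47.7 CPM in the empty-vector libraries. All SRPK2 values were below all empty-vector values, and SRPK2 replicate 3 was the lowest. PMVK lay at -0.30 on the log2 scale (SE 0.08, 95% interval -0.46 to -0.13, edgeR adjusted p = 0.130), a level 0.81-fold that of the empty vector. HMGCS1, which makes HMG-CoA, had 35.9, 37.5 and 41.7 CPM with SRPK2 and 34.8, 32.7 and 38.1 CPM with the empty vector, with overlapping groups (0.13, SE 0.07, edgeR adjusted p = 0.372, and 0.06 without SRPK2 replicate 3). MVK, the first kinase of the pathway, had 17.8, 18.2 and 17.5 CPM with SRPK2 and 16.8, 16.8 and 17.5 CPM with the empty vector. Its lowest SRPK2 library, at 17.53 CPM, lay barely above the highest empty-vector library, at 17.49 CPM, and its log2 fold change was 0.07 (SE 0.06). MVD, which decarboxylates mevalonate diphosphate, and IDI1, the isopentenyl diphosphate isomerase, had log2 fold changes of -0.03 (SE 0.06) and 0.02 (SE 0.06).

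Around the squalene step the values were close to 0. FDPS, farnesyl diphosphate synthase, had 167, 185 and 159 CPM with SRPK2 and 176, 190 and 170 CPM with the empty vector. Replicate 2 was the highest of each group, and the spread within a group was larger than the distance between groups. FDFT1, which makes squalene, had a log2 fold change of -0.02 (SE 0.06). SQLE, the squalene epoxidase and a main control point of the pathway, had 23.5, 23.2 and 23.3 CPM with SRPK2 and 22.1, 23.3 and 23.5 CPM with the empty vector (0.02, SE 0.06). LSS, which closes the sterol rings, had 72.2, 67.0 and 73.1 CPM with SRPK2 and 66.3, 61.2 and 67.5 CPM with the empty vector (0.12, SE 0.06, edgeR adjusted p = 0.296). The LSS groups overlapped only through SRPK2 replicate 2 and empty-vector replicate 3.

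Of the enzymes that turn lanosterol into cholesterol, MSMO1 was the furthest above 0. MSMO1, the sterol methyl oxidase, had 83.7, 86.8 and 88.6 CPM with SRPK2 and 72.3, 76.3 and 79.6 CPM with the empty vector. Every SRPK2 library was above every empty-vector library. The log2 fold change was 0.18 (SE 0.05, 95% interval 0.07 to 0.30, edgeR adjusted p = 0.163). EBP, the sterol isomerase, stood at 105, 105 and 91.1 CPM with SRPK2 and 113, 112 and 109 CPM with the empty vector, again without overlap but in the other direction (-0.16, SE 0.06, edgeR adjusted p = 0.228). Without SRPK2 replicate 3 the log2 fold change of EBP was -0.09 (edgeR adjusted p = 0.625). DHCR7, which catalyses a last step to cholesterol, had 62.0, 58.6 and 58.9 CPM with SRPK2 and 55.1, 56.1 and 53.9 CPM with the empty vector (0.12, SE 0.05, edgeR adjusted p = 0.251). CYP51A1, the lanosterol demethylase, had 152, 151 and 154 CPM with SRPK2 and 143, 138 and 150 CPM with the empty vector (0.08, SE 0.05, edgeR adjusted p = 0.409). The remaining enzymes of this stretch, the sterol reductase TM7SF2, the dehydrogenase NSDHL, the ketosteroid reductase HSD17B7 and the desaturase SC5D, had overlapping groups and log2 fold changes of -0.12, -0.07, 0.06 and -0.01. Over all 17 sterol enzymes the median was 0.02, with 9 positive and 8 negative values. Of these, MVD, FDFT1 and SC5D were positive with library size alone, a scaling that lifted all genes alike. Their summed level was 297, 308 and 293 FPKM with SRPK2 and 298, 302 and 305 FPKM with the empty vector. These sums overlapped.

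The 5 control genes all had positive values, although SCAP turned to -0.01 after the correction for gene length, and only SREBF2 had groups that did not overlap. SREBF2, the SREBP gene best known for cholesterol synthesis, had 62.1, 56.3 and 61.7 CPM with SRPK2 and 55.6, 48.8 and 54.8 CPM with the empty vector. Its lowest SRPK2 library lay just above the highest empty-vector library. The log2 fold change was 0.18 (SE 0.06, 95% interval 0.04 to 0.32, edgeR adjusted p = 0.210). SREBF1, the SREBP gene best known for fatty acid synthesis, had 23.5, 20.1 and 25.7 CPM with SRPK2 and 22.1, 22.6 and 21.9 CPM with the empty vector. SRPK2 replicates 2 and 3 of SREBF1 were the lowest and the highest of the 6 libraries, and the log2 fold change was 0.06 (SE 0.08), turning to -0.03 without SRPK2 replicate 3. Per length, SREBF2 exceeded SREBF1 by 2.62 to 3.06 times with SRPK2 and 2.36 to 2.74 times with the empty vector. INSIG1, which is itself an SREBP target and retains the SCAP complex, had 10.93, 12.43 and 12.62 FPKM with SRPK2 and 11.25, 10.72 and 12.54 FPKM with the empty vector, with overlapping groups (log2 fold change 0.02, SE 0.07). INSIG2 had a log2 fold change of 0.10 (SE 0.07) and SCAP of 0.03 (SE 0.05), both with overlapping groups.

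SREBP factors are known to act on promoters together with NF-Y and Sp1, so the starts of the genes were searched for their motifs. RefSeq promoter windows (GRCh38.p14, 250 bases before to 50 bases after the start) were matched by symbol for 31 of the 35 genes. On either strand, the NF-Y box CCAAT was in 20 of the 31 windows (64.5%), against 36.6% of the 11193 windows of tested genes and 35.7% of all 27305 windows. The Sp1 box GGGCGG was in 87.1% of them, against 69.2% of tested genes and 44.6% of all. The E-box CACGTG was in 16.1% of them, against 9.9% of tested genes and 7.43% of all, and the sterol regulatory element core TCACNCCAC in only 1, that of SREBF2 (3.23%, against 1.13% of tested genes and 1.15% of all). The search letters of these motifs do not contain one another. The 20 genes with CCAAT had a median log2 fold change of 0.05 with 12 positive values, and the 11 without it 0.06 with 9 positive values. The 250 bases before the start are shown for SREBF2, which holds the sterol element, for MSMO1 and SCD, whose values lay above 0, and for PMVK, the lowest of the 35, with motif letters in capitals. SREBF2 is on the plus strand at chr22:41832855-41833104, MSMO1 on the plus strand at chr4:165327419-165327668, SCD on the plus strand at chr10:100346983-100347232 and PMVK on the minus strand at chr1:154936720-154936969.
SREBF2: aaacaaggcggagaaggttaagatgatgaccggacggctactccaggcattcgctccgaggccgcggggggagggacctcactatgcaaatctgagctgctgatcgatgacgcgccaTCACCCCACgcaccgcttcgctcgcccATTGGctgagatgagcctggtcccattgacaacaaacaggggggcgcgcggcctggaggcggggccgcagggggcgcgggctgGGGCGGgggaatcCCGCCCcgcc
MSMO1: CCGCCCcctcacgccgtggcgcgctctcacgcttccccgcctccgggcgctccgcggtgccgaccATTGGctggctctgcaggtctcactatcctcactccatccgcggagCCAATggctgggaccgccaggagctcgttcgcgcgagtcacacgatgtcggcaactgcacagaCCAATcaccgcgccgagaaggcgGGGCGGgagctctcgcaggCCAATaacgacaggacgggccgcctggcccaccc
SCD: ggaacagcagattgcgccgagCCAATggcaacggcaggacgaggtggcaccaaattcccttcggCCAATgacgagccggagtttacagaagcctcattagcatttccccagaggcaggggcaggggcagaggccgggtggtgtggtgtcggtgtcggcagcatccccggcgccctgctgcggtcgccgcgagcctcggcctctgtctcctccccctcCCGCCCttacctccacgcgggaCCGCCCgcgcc
PMVK: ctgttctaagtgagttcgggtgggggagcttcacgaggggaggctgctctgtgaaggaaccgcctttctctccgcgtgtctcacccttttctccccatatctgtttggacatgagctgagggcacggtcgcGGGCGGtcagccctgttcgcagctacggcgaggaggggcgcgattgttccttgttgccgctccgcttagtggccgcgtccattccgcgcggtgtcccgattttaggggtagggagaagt
The stretch before MSMO1 holds 4 CCAAT boxes, the one before SCD holds 2, and the one before PMVK holds 0 and a single Sp1 box. Other genes had the opposite order. The full windows of ACACB, the highest of the 35, and FADS2 hold 0 CCAAT boxes, and that of EBP, below 0, holds 3. A match describes these letters only, and no binding was measured.

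Genes that supply acetyl-CoA units showed little difference. ACLY, which cleaves citrate in the cytosol, had 282, 273 and 288 CPM with SRPK2 and 281, 262 and 282 CPM with the empty vector (0.03, SE 0.05). ACSS2, which activates acetate, had a log2 fold change of 0.09 (SE 0.05). ACAT2, which joins acetyl-CoA molecules for the sterol branch, had -0.06 (SE 0.06). The groups overlapped for all 3 genes.

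The 3 genes of fatty acid synthesis proper all had values above 0, and none passed the threshold. FASN, fatty acid synthase, had 74.0, 69.6 and 85.7 CPM with SRPK2 and 72.2, 64.4 and 70.9 CPM with the empty vector. SRPK2 replicate 3 stood well above the other 5 libraries, SRPK2 replicate 2 lay inside the range of the empty vector, and the log2 fold change was 0.14 (SE 0.07, edgeR adjusted p = 0.336). It was 0.05 without SRPK2 replicate 3 (edgeR adjusted p = 0.833), 0.09 without empty-vector replicate 2 (0.702) and 0.21 without SRPK2 replicate 2 (0.0772). ACACA, the acetyl-CoA carboxylase that feeds fatty acid synthesis, had 49.1, 46.9 and 49.5 CPM with SRPK2 and 45.4, 43.6 and 43.2 CPM with the empty vector, with no overlap (0.14, SE 0.05, edgeR adjusted p = 0.224). ACACB, the isoform known for limiting fatty acid oxidation at mitochondria, had 3.93, 3.77 and 4.38 CPM with SRPK2 and 3.70, 3.30 and 3.03 CPM with the empty vector. These values did not overlap either (0.27, SE 0.12, edgeR adjusted p = 0.284). Per length ACACA exceeded ACACB by 12.8 to 13.7 times with SRPK2 and 13.5 to 15.9 times with the empty vector.

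Among desaturases and elongases, SCD and FADS2 were higher in every SRPK2 library, and the elongases were close to 0. SCD, which makes monounsaturated fatty acids, had 153, 141 and 158 CPM with SRPK2 and 136, 119 and 134 CPM with the empty vector (0.22, SE 0.06, 95% interval 0.08 to 0.36, edgeR adjusted p = 0.158). This corresponds to a 1.16-fold level, with bounds of 1.06-fold and 1.28-fold. FADS2, a front-end desaturase of polyunsaturated fatty acids, had 101, 90.3 and 92.5 CPM with SRPK2 and 83.8, 80.2 and 85.6 CPM with the empty vector (0.19, SE 0.06, 95% interval 0.06 to 0.31, edgeR adjusted p = 0.174). Its neighbour FADS1, which acts after it in the same pathway, had overlapping groups and 0.05 (SE 0.05). The FPKM ratio of FADS1 to FADS2 was 1.33, 1.43 and 1.52 with SRPK2 and 1.59, 1.56 and 1.55 with the empty vector. ELOVL1, which extends very long saturated chains, had 160, 162 and 146 CPM with SRPK2 and 167, 166 and 161 CPM with the empty vector (-0.08, SE 0.05). ELOVL5, which extends polyunsaturated chains, and ELOVL6, which extends palmitate, had -0.02 (SE 0.05) and 0.00 (SE 0.05), and 0.01 and 0.03 with library size alone, where the median of all tested genes was 0.04. For ELOVL6 the 95% interval ran from -0.11 to 0.10, the narrowest of the 35. The sterol carrier STARD4, an SREBP target, had 38.6, 38.5 and 41.8 CPM with SRPK2 and 34.2, 35.2 and 36.8 CPM with the empty vector, without overlap (0.16, SE 0.06, edgeR adjusted p = 0.203).

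**Figure D3:**
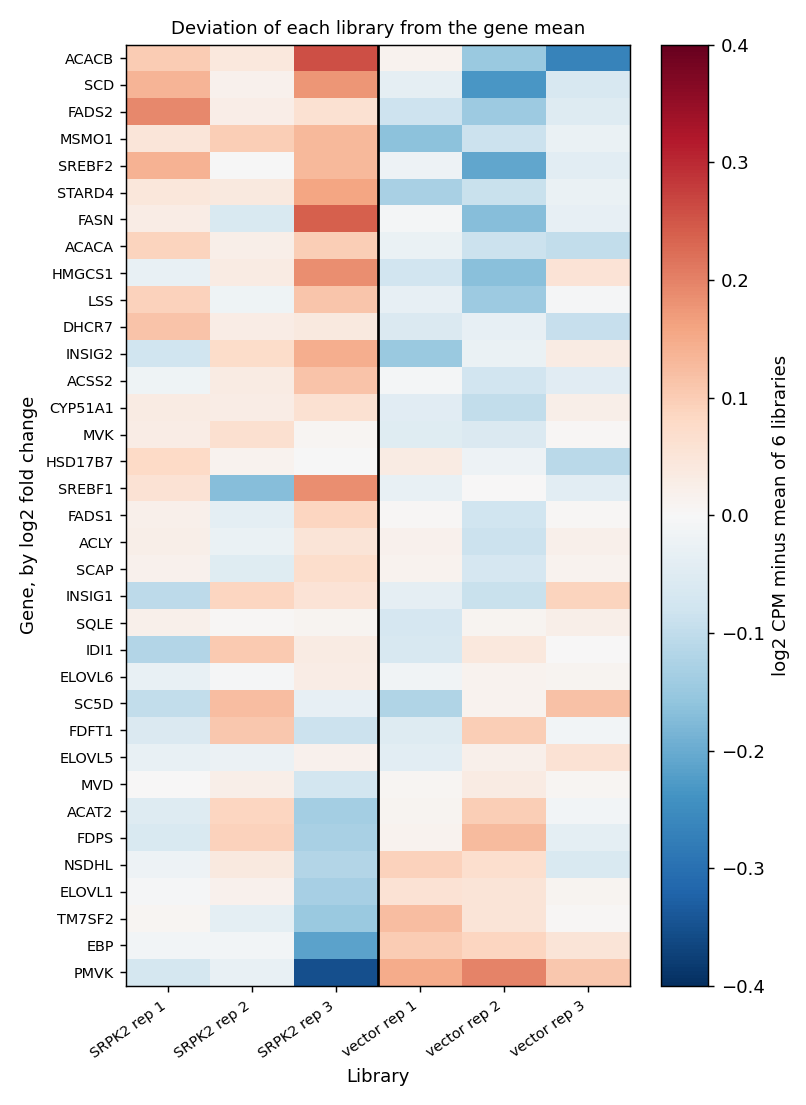
Log2 CPM of each library minus the mean of the 6 libraries (colour), for the 35 genes (y axis, ordered by log2 fold change) in the SRPK2 libraries (left of the line) and the empty-vector libraries (right). The genes at the top (ACACB, SCD, FADS2) are red on the left, faintest in SRPK2 replicate 2. At the bottom, EBP and PMVK are blue in SRPK2 replicate 3 (-0.21 and -0.35). In SRPK2 replicates 1 and 2 they are close to the mean (EBP -0.01 in both, PMVK -0.07 and -0.03).

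Single libraries moved the calls. The median deviation of the 35 genes from their own means, in log2 CPM, was 0.02, 0.02 and 0.05 in SRPK2 replicates 1, 2 and 3, and -0.03, -0.03 and 0.00 in empty-vector replicates 1, 2 and 3. Without SRPK2 replicate 2, 4 of the 35 genes passed the threshold, where 8.37% of 16772 tested genes did: PMVK fell (log2 fold change -0.36, edgeR adjusted p = 0.0166), and SCD (0.26, 0.0242), FADS2 (0.22, 0.0380) and SREBF2 (0.22, 0.0453) rose. With any other library left out, 0 of the 35 passed, where 0.161% to 0.274% of tested genes did. The value of PMVK was -0.20 and that of SCD 0.16 at the settings that brought them nearest to 0. With the replicate number as a block 14 of the 35 passed, where 23.6% of tested genes did, and with the block and a correction for gene length 8, where 20.9% did. The numbers were not shown to pair the libraries.

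The difference between groups ran with gene length. Across the 35 genes, the log2 of the length behind the FPKM values and the log2 fold change had a Pearson r of 0.73 and a Spearman rho of 0.64, and across the 16101 tested genes with a length r was 0.21 and rho 0.29. Genes share libraries and are not independent replicates, so this is a description. All 5 pathway genes under 3 kb (PMVK, EBP, NSDHL, ELOVL1 and ACAT2) had negative values, with a median of -0.08, and 1485 of the 4355 tested genes of that length had positive ones, with a median of -0.09. Of the 13 pathway genes of at least 7 kb, 11 had positive values with a median of 0.12, and 3508 of 5071 tested genes of that length did, with a median of 0.05. These classes rest on the length recovered from reads and FPKM. Annotated exons of the 35 genes (GENCODE 29) came to 0.50 to 1.48 times that length. They held 4299 bases for ACAT2, 2892 for MSMO1, 4160 for DHCR7, 4702 for HMGCS1, 6480 for MVK and 5566 for SC5D. These lengths would place the genes in other classes. By annotated exons ACAT2 would leave the class under 3 kb, and MSMO1, with a positive value, would enter it. After each library was corrected for a trend with length, PMVK had -0.25 (edgeR adjusted p = 0.0798), MSMO1 0.21 (0.103), SCD 0.20 (0.135), FADS2 0.12 (0.250), SREBF2 0.13 (0.249) and ACACA 0.07 (0.473), and the median of the 35 genes was 0.02. After this correction 0 of the 35 genes passed, where 0.64% of the 16101 tested genes did. The corrected values of the 35 genes still ran with length, with an r of 0.52 and a rho of 0.40. The part of length in the differences was not otherwise tested. The number of introns in the longest coding transcript, 4 to 55 (GENCODE 29), had an r of 0.43 and a rho of 0.38 with the log2 fold change over the 35 genes, and introns and length are themselves related.

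**Figure D4:**
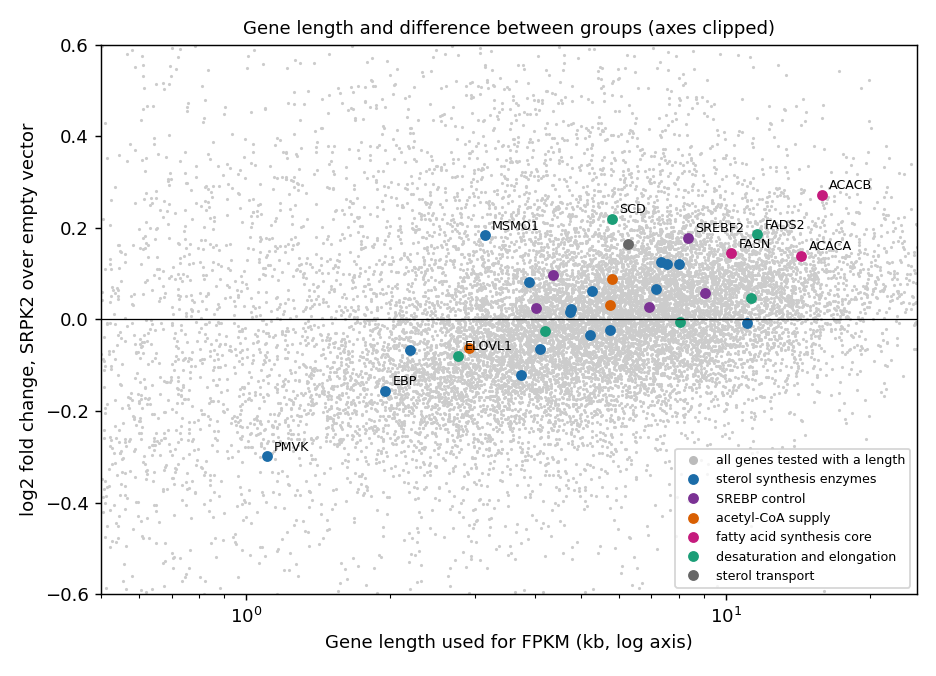
Gene length behind the FPKM values (x axis, kb, log axis) against log2 fold change of SRPK2 over empty vector (y axis), for the 35 genes (coloured by role) and all tested genes with a length (grey); values outside the axes are not drawn. The shortest pathway gene, PMVK at 1.11 kb, lies lowest and the longest, ACACB at 15.9 kb, highest.

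Some totals may include reads of other genes, since the counting's use of strand is not known. In GENCODE 29 (GRCh38) exons of ACAT2 share 397 bases with TCP1 on the opposite strand, a gene with 10994 to 14143 reads per library. On that strand ACAT2 exons also share 1141 of their 4299 bases with the protein-coding gene SOD2, and 1458 with the noncoding SOD2-OT1. FADS1 (chromosome 11, 61799625 to 61829318, minus strand) and FADS2 (61792980 to 61867354, plus strand) share 490 exonic bases, MVK shares 306 with MMAB, and SREBF1 shares 556 with RAI1, all on opposite strands. On the same strand, FADS2 shares 49 bases with FEN1, and CYP51A1 shares 99 with AC000120.3 (311 to 540 reads). CYP51A1 also shares 2844 of its 3584 exonic bases with AC000120.2, a same-strand protein-coding gene that was given 0 to 2 reads per library. The pseudogene HSD17B7P2 had 33 to 72 reads beside 378 to 452 of HSD17B7, and reads of these related sequences can be split. Among the other genes whose groups did not overlap, PMVK lies on chromosome 1 from 154924734 to 154936991 (minus strand), EBP on chromosome X from 48521158 to 48528716 (plus), MSMO1 on chromosome 4 from 165327623 to 165343160 (plus), SCD on chromosome 10 from 100347124 to 100364834 (plus), SREBF2 on chromosome 22 from 41833079 to 41907308 (plus) and STARD4 on chromosome 5 from 111496033 to 111512590 (minus). DHCR7 lies on chromosome 11 from 71428193 to 71452868 (minus) and ACACA on chromosome 17 from 37084988 to 37406818 (minus). ACACB lies on chromosome 12 from 109116595 to 109268226 (plus). No protein-coding gene shared exonic bases with any gene of this list.

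No gene of the neighbouring lipid pathways passed either. Of 13 other SREBP processing and sterol-sensing factors tested 0 rose and 0 fell, with a median log2 fold change of -0.01. VCP, the segregase that extracts proteins from the endoplasmic reticulum, had 0.03 (SE 0.05), and AUP1, a factor of the same degradation route, had -0.16 (SE 0.06, edgeR adjusted p = 0.223). Of 19 tested genes of sterol efflux and trafficking 0 passed (median 0.07), with NPC2, a lysosomal sterol carrier, at -0.10 (SE 0.07) and SOAT1, the sterol esterification enzyme, at 0.00 (SE 0.05). Of 28 other genes of fatty acid activation, elongation and lipid assembly 0 passed (median 0.00), with the acyl-CoA synthetase ACSL5 at 0.03 (SE 0.05) and the acyltransferase AGPAT1 at 0.02 (SE 0.05). Of 19 fatty acid oxidation genes 0 passed, 14 values were negative and the median was -0.04. ECHS1, the enoyl-CoA hydratase, had -0.14 (SE 0.06, edgeR adjusted p = 0.256) and ACADVL, a long-chain dehydrogenase, 0.08 (SE 0.05). At an unadjusted p under 0.05 these lists held 1 of 13, 2 of 19, 6 of 28 and 3 of 19 genes, where 17.2% of all tested genes passed. Among 13 kinases and splicing factors tied to SRPK2 in lipogenic splicing, SRPK2 itself was the only one past the threshold (log2 fold change 2.71, SE 0.10, edgeR adjusted p = 2.94e-08).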

How the data were processed

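The 6 MDA-MB-231 libraries took their groups from the sample titles. DNase-treated total RNA was sequenced in paired-end mode, per the labels' protocols. HISAT2 is the aligner named in the submitters' processing notes, with build GRCh38. How reads were assigned to genes, and with which strand setting, is not given in the sources used here. The authors deposited whole-number read counts per gene, not normalized, and FPKM values with 2 decimals. The length of a gene was recovered from its reads and FPKM where FPKM was at least 0.1.

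The count test was edgeR 4.0.16 (R 4.3.3, TMM, filterByExpr, glmQLFit, glmQLFTest, two-sided) with group as the only term. Adjustment was by Benjamini-Hochberg over 16515 tested genes, with 0.05 as the threshold. An SE is the log2 fold change divided by the root of F, without its sign. The alternatives were RLE factors or library size alone, no filter or one at 5 mean CPM, DESeq2 1.42.0, limma 3.58.1 on voom weights or on log2 FPKM (pseudocount 1 or 0.1, minimum mean 0.5 or none), a replicate block, a loess correction for length (span 0.3) and leaving out each library. The code was tested on simulated counts.

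The members and lists were chosen with earlier results of these data known. The text names every member, SRPK2 and, from each other list of pathway genes, those called or else the 2 most abundant; CH25H, LPIN3 and GPAM were added after their values were seen. Replicates of a group differed by 4.78 to 16.7 times sampling noise (chi-square per degree of freedom), so none were copies. Depth limits the precision of the scarcest genes.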

Additional observations from a re-analysis of the deposited data

How the results depend on the processing

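The replicate numbers were not shown to pair the libraries. Between libraries of the same number, deviations from group means had an r of 0.08, 0.23 and 0.17 for replicates 1, 2 and 3. Between libraries of different numbers r was negative in every case, down to -0.17. Deviations from a group mean sum to 0 within the group, so a positive r for a shared number pushes the others below 0. The negative values are therefore not separate evidence of pairing. Every library correlated best with its own number, which is a hint from the data and not the design. With the replicate block 3899 genes and 14 of the 35 pathway genes passed, and with the block and the gene length correction 3362 and 8. The genes called were 997 with no filter on low counts, 153 with DESeq2 and 18 with log2(FPKM + 1) and no filter, against 75. The pathway genes called were 2 with no filter (PMVK and SCD) and 1 with DESeq2 (PMVK, adjusted p = 0.0474), and 0 with limma-voom and the other scalings and filters run. The pathway median of 0.05 was 0.083 with library size alone, 0.075 with log2(FPKM + 0.1), 0.016 with the length correction and 0.015 with the correction and the block, where the medians of all genes tested were 0.040, 0.033, -0.014 and -0.014, against 0.0040. Leaving out each library gave 27 to 1403 called genes, 0 to 4 called pathway genes, medians of 0.01 to 0.06, and 11 to 23 pathway genes without overlap, where 25.6% to 42.3% of all genes had none. The counts were highest without SRPK2 replicate 2 (23 pathway genes and 42.3% of all genes). The cause of these shifts was not tested.

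The sign was the same in every setting for 23 of the 35 genes. Library size alone turned MVD (0.0021), FDFT1 (0.013), SC5D (0.027), ELOVL5 (0.012) and ELOVL6 (0.031) to positive values, all below the median of all genes under that scaling (0.040). So did log2(FPKM + 1), with or without a filter (0.0028, 0.012, 0.024, 0.012 and 0.029), and log2(FPKM + 0.1) (0.0035, 0.013, 0.028, 0.012 and 0.031), where the medians of all genes were 0.025 with the filter, 0.0063 without it and 0.033. The length correction turned SCAP (-0.012, and -0.011 with the block) and FADS1 (-0.014 both ways). Leaving out a library gave ranges that crossed 0 for ACLY (-0.0054 to 0.052), ELOVL6 (-0.023 to 0.0049), FDFT1 (-0.085 to 0.019), IDI1 (-0.034 to 0.070), INSIG1 (-0.016 to 0.077), SC5D (-0.073 to 0.051), SCAP (-0.0062 to 0.057), SQLE (-0.0048 to 0.040) and SREBF1 (-0.032 to 0.149). These 12 genes had edgeR adjusted p of 0.663 to 0.966, and the 95% interval of each held 0.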

Other observations

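Outside the pathway list, 3 lipid genes are given here that were picked after their values were seen, and none passed the threshold. CH25H, which hydroxylates cholesterol to an oxysterol and is known as an interferon-stimulated gene, had 4.01, 4.27 and 3.85 FPKM with SRPK2 and 3.05, 2.83 and 2.70 FPKM with the empty vector, with no overlap (log2 fold change 0.46, edgeR adjusted p = 0.0717). LPIN3, a phosphatidate phosphatase of lipid assembly, had 2.77, 2.86 and 2.93 FPKM with SRPK2 and 2.38, 2.03 and 2.19 FPKM with the empty vector (0.34, edgeR adjusted p = 0.0798). GPAM, which starts glycerolipid synthesis, lay the other way, with 1.22, 1.08 and 1.17 FPKM with SRPK2 and 1.24, 1.28 and 1.41 FPKM with the empty vector (-0.22, edgeR adjusted p = 0.198).

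For some genes the library with the same replicate number was the extreme of both groups. Replicate 2 was the lowest of its group in both groups for 9 of the 35 genes (25.7%, against 18.2% of all tested genes), among them SREBF2, FASN, SCD, FADS2, LSS and ACLY. It was the highest in both for 6 genes (17.1%, against 21% of all tested genes), which were PMVK, MVD, IDI1, FDPS, FDFT1 and ACAT2. Replicate 3 was the highest in both for 9 genes (25.7%, against 18.7%) and the lowest in both for 8 (22.9%, against 19.6%). Replicate 1 was the highest in both for 3 genes (8.57%, against 12.5%) and the lowest in both for 6 (17.1%, against 12.6%).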
